A study of Homo sapiens with 4 samples.

Results

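The genes described here encode the MYC, MAX and MXD network, a set of 10 among 19689 human protein-coding genes: MYC, MAX, MXD1, MXD3, MXD4, MXI1, MNT, MGA, MLX and MLXIP. They were picked by name, with earlier results of these data known, and 4 lists of ChIP-seq peaks were searched for peaks at them. A promoter peak was a peak whose summit, the base of highest pileup, lay at most 1 kb from where some protein-coding transcript of the gene starts in GENCODE 44 (its transcription start site, TSS). A nearby peak was any peak in the gene or within 10 kb of it, and for MYC the 500 kb on either side were searched as well.

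In chromatin immunoprecipitation followed by sequencing (ChIP-seq), an antibody recovers the DNA that a protein holds, and stretches of the genome with a pileup of sequenced tags are reported as peaks. All libraries came from MIA PaCa-2, an established human line of pancreatic ductal adenocarcinoma (PDAC). Cells received DMSO as the solvent control, AMG510, an inhibitor, at 100 nM or trametinib, an inhibitor of the kinase MEK, at 10 nM, each for 8 h. There was 1 c-MYC library for each treatment and 1 IgG library, made with a non-specific antibody, from DMSO-treated cells, so no difference between treatments has a replicate check and none was tested. Intervals below cover counting error in single libraries only, and tags are not fully independent fragments.

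MYC is a basic helix-loop-helix leucine zipper protein that binds DNA only as a pair with MAX, and the preferred site of the pair is the E-box CACGTG. The MXD proteins, MXI1 and MNT compete with MYC for MAX and bring SIN3 and histone deacetylases to the same kind of site, which lowers transcription. MGA also pairs with MAX and belongs to a Polycomb repressive complex, while MLX is a MAX-like partner of the glucose-responsive factor MLXIP and of some MXD proteins. A c-MYC peak at one of these genes places c-MYC signal at its own network, and the peak lists hold no measure of transcription.

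The sequences under the summits are shown first, because the presence and place of an E-box differed among the members. All are GRCh38 reference sequence of the plus strand, written 5′ to 3′, and capitals mark CACGTG or the variant CACGCG, which reads CGCGTG on the other strand. MXD1 and MXD3 had a promoter peak in all 3 c-MYC lists, and both carried CACGTG under the peak found with DMSO.
MXD1, chr2:69914265-69914356: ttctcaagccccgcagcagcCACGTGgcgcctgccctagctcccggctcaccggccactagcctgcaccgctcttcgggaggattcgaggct
MXD3, chr5:177312244-177312301: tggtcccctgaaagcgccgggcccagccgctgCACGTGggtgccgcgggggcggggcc

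MNT and MLXIP also carried CACGTG within 100 bp of the DMSO summit, but had a promoter peak in that list alone. In MNT the summit lay on the first base of a CGCGTG, with CACGTG 73 bp to its right on the plus strand, and in MLXIP the CACGTG started 9 bp to the left of the summit.
MNT, chr17:2400547-2400665: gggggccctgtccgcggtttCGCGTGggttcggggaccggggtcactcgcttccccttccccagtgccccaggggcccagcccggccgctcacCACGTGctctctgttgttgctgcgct
MLXIP, chr12:122078363-122078412: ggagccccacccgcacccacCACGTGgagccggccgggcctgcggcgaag

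MXI1 and MGA had promoter peaks with DMSO and AMG510. The MXI1 stretch holds the CACGCG that started 21 bp to the left of the DMSO summit. MGA is given at both of its sites, because its DMSO and AMG510 peaks lay at different starts of the gene. Its DMSO site held a CACGTG that ran past the 100 bp limit, starting 96 bp to the right of the summit.
MXI1, chr10:110225992-110226021: aggtaaacaaacCACGCGcgggctgcccgc
MGA with DMSO, chr15:41621612-41621762: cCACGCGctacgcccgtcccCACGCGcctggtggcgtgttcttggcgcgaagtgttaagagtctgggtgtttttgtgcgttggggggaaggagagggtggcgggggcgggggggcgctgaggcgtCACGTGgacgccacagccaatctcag
MGA with AMG510, chr15:41660796-41660907: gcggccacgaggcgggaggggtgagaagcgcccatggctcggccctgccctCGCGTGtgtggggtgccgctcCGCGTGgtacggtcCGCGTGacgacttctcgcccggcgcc

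An E-box in the promoter did not always go with a peak. MXD4 and MLX each held CACGTG close to the start and had no peak in any list. MAX had a DMSO peak at chr14:65102918-65103185 without the motif, between a pair of CACGTG motifs that both lay outside it.
MXD4, chr4:2262330-2262359: gcttagcaacagCACGTGgtggcccggccc
MLX, chr17:42567038-42567067: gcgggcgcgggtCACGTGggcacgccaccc
MAX to the left of the peak, chr14:65102849-65102878: gggaagacaggaCACGTGgagggagctgga
MAX to the right of the peak, chr14:65103250-65103279: tactcagctactCACGTGaggctccagcgt

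The 4 libraries were of similar estimated depth, with 22700000 to 24800000 tags entering peak calling. These numbers were derived from the background of each library and were not counted. The c-MYC lists differed in length, from 5431 peaks with trametinib to 10378 with AMG510, with 9552 for DMSO. The IgG list held 2966. The median summit held 10 to 13 tags and the smallest 7 or 8, so a gene without a peak may still have had tags that stayed under the calling limit. NPM1 and NCL, genes for nucleolar proteins and long-known MYC targets, had promoter peaks in all 3 c-MYC lists and none in IgG. Fold enrichment is the pileup over the local background, after a constant is added to each. That of NPM1 exceeded the value of at least 98.7% of the peaks in each c-MYC list.

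With DMSO, 7 of the 10 network genes had a c-MYC promoter peak, namely MAX, MXD1, MXD3, MXI1, MNT, MGA and MLXIP, where 24.2% of all protein-coding genes had one. With AMG510 there were 4, MXD1, MXD3, MXI1 and MGA, against 15.3% of all genes. With trametinib only MXD1 and MXD3 of the 10 had one, against 11.8% of all genes. The IgG list had none at the 10 genes and covered 0.559% of all genes. MYC, MXD4 and MLX had no promoter peak in any list.

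**Figure D1:**
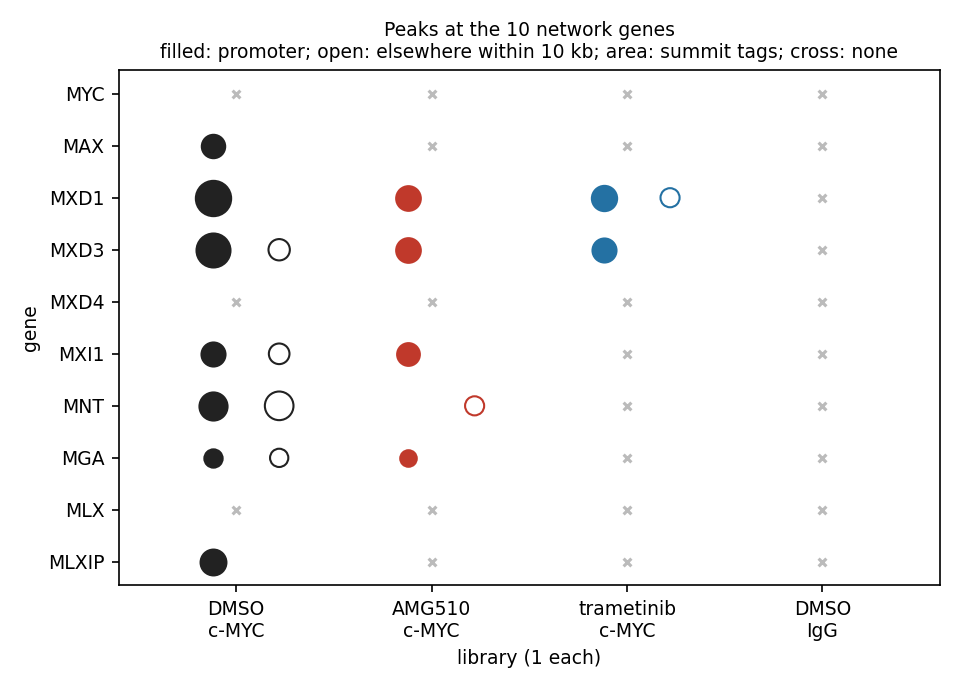
Peaks at the 10 network genes (rows) in each of the 4 libraries (columns). Filled circles are promoter peaks and open circles other peaks within 10 kb, with the area in proportion to the summit tags of the peak with most tags, and crosses mark genes with no peak. DMSO has 7 genes with a filled circle, AMG510 4, trametinib 2 and IgG 0.

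Including the gene body and 10 kb on either side changed little. The number of network genes with a nearby peak was 7 with DMSO, against 38.8% of all genes, and 5 with AMG510, where MNT joined, against 33.7%. It was 2 with trametinib, against 22.9%, and 0 in IgG, against 7.88%. Long genes have more room for a peak. Among the 14207 genes no shorter than MLX, at 6168 bp, and no longer than MGA, at 151948 bp, the shares were 40.4% with DMSO, 33.3% with AMG510, 23.1% with trametinib and 6.19% in IgG. The trametinib count for the network thus lay near the background on this wider measure.

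**Figure D2:**
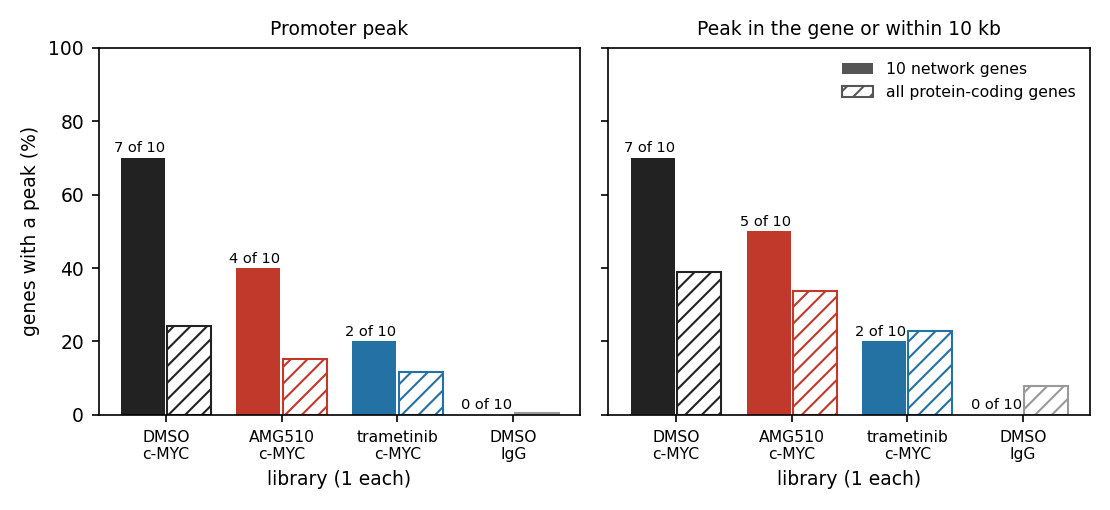
Share of genes with a peak (vertical axis, percent from 0) in each library, for the 10 network genes (solid bars, with the number of genes) and all 19689 protein-coding genes (hatched bars). The left panel counts promoter peaks and the right panel peaks in the gene or within 10 kb. With trametinib, the solid bar stands above the hatched bar on the left, 2 of 10 against 11.8%, and just below it on the right, 2 of 10 against 22.9%.

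Of the 7 network genes with a DMSO promoter peak, 4 also had a promoter peak with AMG510, and 2 had one with trametinib. Over all 4763 genes with a DMSO promoter peak these shares were 43.0% and 35.3%, and both comparisons use the same DMSO library. By position, AMG510 peaks overlapped 3 of the 8 DMSO promoter peaks of the network and trametinib peaks 2, where the shares over all 4617 DMSO promoter peaks were 33.1% and 27.7%. The network's shares were thus near the background.

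MXD1 and MXD3, antagonists of MYC that pair with MAX, had the strongest network peaks. MXD1 (ENSG00000059728, chromosome 2, 69897688 to 69942945, plus strand) had a DMSO peak at chr2:69914165-69914489. Its summit held 41 tags (95% interval 29.4 to 55.6) over a background of 2.74, a fold enrichment of 11.2, which exceeded that of 99.3% of the peaks in the list. The summit lay 705 bp upstream of the nearest TSS.

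At the same place the MXD1 peak held 20 tags (12.2 to 30.9) with AMG510 and 21 (13.0 to 32.1) with trametinib. The fold enrichments were 6.38 and 5.59, above 95.6% and 83.8% of the peaks in their own lists. Scaled to the depth of each library, the log2 ratio of tags to DMSO was −1.05 (−1.903 to −0.249) with AMG510 and −1.01 (−1.845 to −0.220) with trametinib. Both drug libraries held fewer tags than the DMSO library. The gap exceeded counting error only if each tag is taken as independent, which tags are not fully. The drug summits lay 51 and 19 bp from the DMSO summit, and the CACGTG printed above lay inside each of the 3 peaks. With trametinib MXD1 also had a weak peak in intron 2, 4000 bp downstream of the canonical TSS, with 12 tags (6.20 to 21.0) and a fold enrichment of 3.55.

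MXD3 (ENSG00000213347, chromosome 5, 177301461 to 177312757, minus strand) had a DMSO peak at chr5:177312095-177312437 with 38 tags (26.9 to 52.2), a fold enrichment of 8.03, above 96.1% of the list. The summit lay 366 bp upstream of the canonical TSS, inside the annotated gene because other transcripts start farther out. The drug peaks at this promoter held 20 tags (12.2 to 30.9) with AMG510 and 19 (11.4 to 29.7) with trametinib. Their fold enrichments of 5.38 and 4.92 exceeded those of 85.1% and 66.5% of their lists. The log2 ratio to DMSO was −0.944 (−1.803 to −0.126) with AMG510 and −1.05 (−1.924 to −0.217) with trametinib.

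The MXD3 summits did not fall on the same base. With AMG510 the summit lay 61 bp from that of DMSO and kept the CACGTG within 100 bp. With trametinib it lay 112 bp away, 254 bp upstream of the TSS, and that peak ended before the CACGTG. A further DMSO peak within 10 kb of MXD3, with 15 tags (8.40 to 24.7), had its summit 8 bp from a start of the neighbouring gene PRELID1, and RAB24 also starts within 1 kb.

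**Figure D3:**
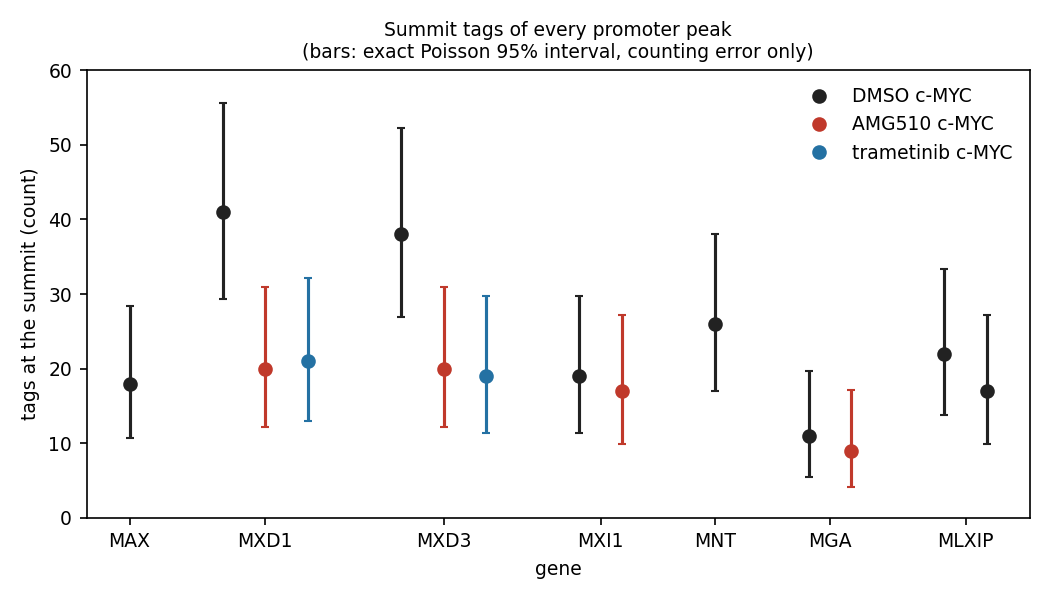
Tags at the summit of each promoter peak (vertical axis, count from 0) for the 7 network genes with such a peak, by library. Points are single peaks of 1 library each, MLXIP has a pair of DMSO peaks, and bars are exact Poisson 95% intervals for counting error. MXD1 and MXD3 hold 41 and 38 tags with DMSO and 19 to 21 with either drug, while the MXI1 points at 19 and 17 tags have overlapping bars.

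For scale, the log2 ratio over all overlapped DMSO promoter peaks had a median of −0.494 (quartiles −0.823 to −0.198) for AMG510, from 1530 peaks, and −0.483 (quartiles −0.806 to −0.179) for trametinib, from 1279 peaks. The ratio moved with the height of the DMSO peak, from a median of −0.018 for AMG510 and 0.052 for trametinib at 8 to 14 DMSO tags to −0.939 (quartiles −1.172 to −0.666) and −0.913 (quartiles −1.192 to −0.653) at 30 tags or more. Among DMSO peaks of like height, the ratios of MXD1 and MXD3 thus lay between the quartiles for both drugs, although they lay below the lower quartile of all peaks. Only peaks that passed the calling limit in both libraries enter these ratios, and the tags at sites that lost their peak are not known.

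MXI1, another MAX-binding antagonist of MYC, is annotated on chromosome 10, 110207605 to 110287365, plus strand (ENSG00000119950), and has 26 distinct protein-coding starts. Its DMSO peak at chr10:110225889-110226267 held 19 tags (11.4 to 29.7) with a fold enrichment of 6.23, above 88.4% of the list. The AMG510 peak, at chr10:110225854-110226172, held 17 tags (9.90 to 27.2) with a fold enrichment of 5.68, above 90.7%. The log2 ratio was −0.178 with an interval of −1.213 to 0.844, so no difference was detectable at this depth. For AMG510, overlapped DMSO promoter peaks of 15 to 19 tags had a median of −0.340 (quartiles −0.558 to −0.111), and MXI1 lay between these quartiles. The summits lay 32 and 9 bp downstream of alternative starts, 18420 and 18488 bp downstream of the canonical TSS in intron 1.

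With trametinib MXI1 had no peak in the gene or within 10 kb. If the background at this site had been that of the DMSO library, 9 tags at the summit would have passed the p-value limit in the trametinib library. A second DMSO peak of MXI1, in intron 2, held 14 tags (7.65 to 23.5), and no drug peak overlapped it.

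MNT (ENSG00000070444, chromosome 17, 2384073 to 2401104, minus strand), a broadly expressed MYC antagonist, had a pair of DMSO peaks. The promoter peak, at chr17:2400436-2400682 in intron 1, lay 493 bp downstream of the TSS and held 26 tags (17.0 to 38.1) with a fold enrichment of 5.06, above 68.1% of the list. The other, at chr17:2393451-2394155 in intron 4, held 27 tags (17.8 to 39.3) with a fold enrichment of 5.98, above 85.7%. It carried 2 CACGCG motifs within 100 bp of the summit and no CACGTG.

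AMG510 left the intron 4 peak of MNT in the list but not the promoter peak. The AMG510 peak that overlapped it held 12 tags (6.20 to 21.0) with a fold enrichment of 3.53, at a log2 ratio of −1.19 (−2.303 to −0.158), and a further AMG510 peak beside it also held 12. At the promoter 13 tags would have sufficed with AMG510 and 14 with trametinib, if the background equalled that of DMSO. Trametinib left no peak within 10 kb of MNT.

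MXD4, the remaining MXD gene (ENSG00000123933, chromosome 4, 2247432 to 2262109, minus strand), had no peak in any of the 4 lists, in the gene or within 10 kb. Its CACGTG lay 235 bp upstream of the TSS.

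MAX (ENSG00000125952, chromosome 14, 65006174 to 65102695, minus strand), the common partner of the network, had a single peak, with DMSO. It held 18 tags (10.7 to 28.4) over a background of 2.55, a fold enrichment of 5.35, above 75.1% of the list, and lay 332 bp upstream of the nearest TSS and 510 bp upstream of the canonical one. At that background 10 tags would have made a call in either drug library. Of the CACGTG motifs within 1 kb of the canonical MAX start, at 48, 346 and 747 bp upstream, none lay inside this peak.

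MGA, a large MAX partner (ENSG00000174197, chromosome 15, 41621134 to 41773081, plus strand), had the weakest promoter peaks of the network. The DMSO peak, at chr15:41621618-41621794, held 11 tags (5.49 to 19.7) with a fold enrichment of 4.66, above 52.1% of the list. Its summit lay 149 bp downstream of an alternative start and 38764 bp upstream of the canonical one, and a non-coding RNA gene (ENSG00000260926) starts 161 bp away. The AMG510 peak, at chr15:41660717-41661083, held 9 tags (4.12 to 17.1) with a fold enrichment of 4.14, above 33.6%, and lay 411 bp downstream of the canonical TSS in intron 1.

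MGA thus counts as having a promoter peak in both lists although the peaks do not overlap. If the background at the DMSO site had been that of the DMSO library, 8 tags would have made a call in either drug library. The tag intervals of the DMSO and AMG510 peaks reach below that number, so at this depth presence or absence at MGA is within counting error. Another DMSO peak with 11 tags, within 10 kb of the 3′ end of MGA, was centred 7 bp from the start of the neighbouring gene MAPKBP1.

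MLXIP, the glucose-responsive partner of MLX (ENSG00000175727, chromosome 12, 122078756 to 122147344, plus strand), had a pair of DMSO promoter peaks and none in the other lists. The first, at chr12:122078286-122078522, held 22 tags (13.8 to 33.3) with a fold enrichment of 6.55, above 90.4% of the list, 364 bp upstream of the TSS. The second, at chr12:122078754-122078982, held 17 tags (9.90 to 27.2) with a fold enrichment of 5.05 and lay 160 bp downstream of the TSS in coding exon 1. At the DMSO background, 10 tags would have made a call at either site in each drug library. At the first site this calling limit lay below the lower bound of the DMSO interval. The same held for the promoter peaks of MAX and MNT with both drugs and of MXI1 with trametinib. Tags in a drug library carry counting error of their own, and the DMSO peaks were selected as called. The comparison therefore does not place the absence of a drug peak beyond counting error.

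MLX (ENSG00000108788, chromosome 17, 42567072 to 42573239, plus strand), the shortest of the genes, had no peak in any list within 10 kb. Its CACGTG lay 47 bp upstream of the TSS.

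The network peaks with the most DMSO tags were the ones that recurred with both drugs. MXD1 and MXD3, at 41 and 38 tags, were overlapped by peaks with both drugs. The other 6 DMSO promoter peaks, with 11 to 26 tags, were overlapped by none with trametinib and only at MXI1 with AMG510. Over all DMSO promoter peaks the share overlapped was likewise higher at taller peaks. For AMG510 it was 15.3% at 8 to 14 tags, 27.5% at 15 to 19, 53.0% at 20 to 29 and 88.0% at 30 or more. For trametinib the shares were 10.4%, 21.9%, 44.6% and 89.1%.

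**Figure D4:**
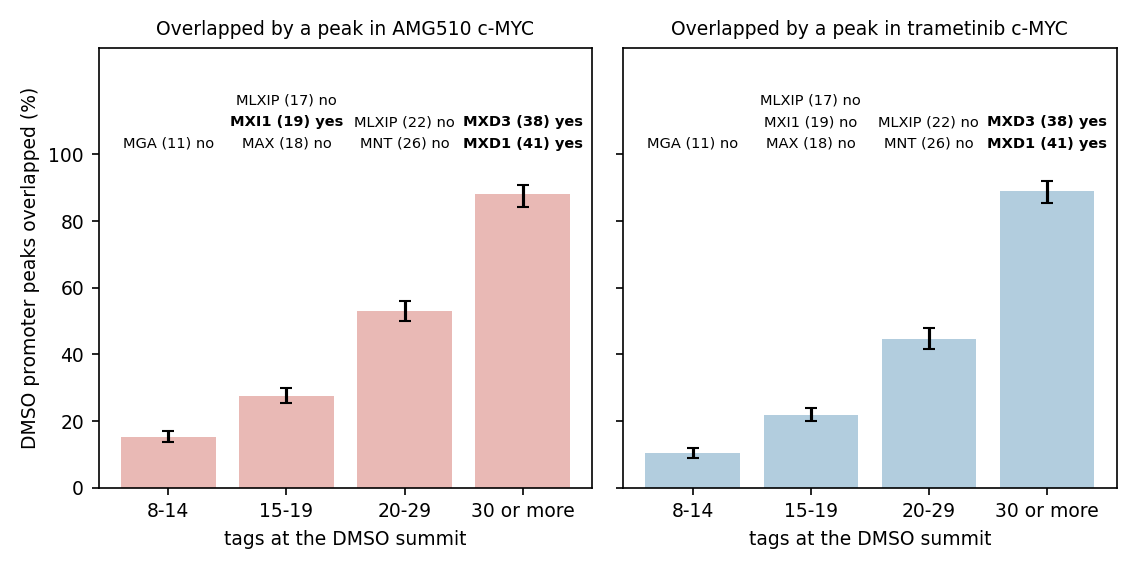
Share of all DMSO promoter peaks overlapped by an AMG510 (left) or a trametinib (right) peak, in percent from 0, by tags at the DMSO summit, with Wilson 95% intervals as error bars. Names above the bars give each promoter peak of the network in its tag class, with its DMSO tags and whether it was overlapped. MXD1 and MXD3 sit in the top class, where 88.0% and 89.1% of peaks were overlapped.

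The E-box was present at more of the network's peaks than at promoter peaks in general. Of the 8 DMSO promoter peaks of the network, 4 had CACGTG at most 100 bp from the summit, those of MXD1, MXD3, MNT and MLXIP, where 16.9% (Wilson 95% interval 15.9 to 18.0) of all DMSO promoter peaks held it. With AMG510 it lay there in 1 of 4 (MXD3), against 14.4% of all, and with trametinib in 1 of 2 (MXD1), against 17.3%. In IgG promoter peaks the share was 4.59% (1.98 to 10.3). When CACGCG was also accepted, 7 of 8 DMSO peaks of the network held a motif, against 37.0% of all, with the MAX peak as the exception.

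Anywhere in the peak, CACGTG was found in 5 of 8, against 22.8% of all DMSO promoter peaks, MGA being added. Without regard to peaks, 7 of the 10 genes had CACGTG within 1 kb of the canonical TSS, against 29.2% of 19688 genes. MYC, MXI1 and MGA were the genes without it. Thus the E-box was already frequent at the starts of these genes, whether or not a peak was called, and MXD4 and MLX had the motif without a peak. A motif match describes the reference sequence and is not a measure of binding.

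MYC itself (ENSG00000136997, plus strand) had no peak in the gene or within 10 kb of it in any list, although 13 distinct protein-coding starts are annotated. Within 500 kb on either side there were 5 peaks with DMSO, 4 with AMG510, 6 with trametinib and 1 in IgG. The median over all protein-coding genes was 5, 5, 3 and 1 peaks. As many peaks or more lay around 56.1% of genes in the DMSO list, 65.9% in the AMG510 list, 17.6% in the trametinib list and 62.3% in the IgG list.

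A single site near MYC had a peak in all 3 c-MYC lists and none in IgG. It lay at a start of PVT1, a long non-coding RNA gene next to MYC. Its summits were 58351, 58312 and 58367 bp downstream of the MYC TSS for DMSO, AMG510 and trametinib. The DMSO summit held 46 tags (33.7 to 61.4) with a fold enrichment of 6.87, above 92.3% of the list. With AMG510 it held 43 tags (31.1 to 57.9) with a fold enrichment of 8.74, above 99.0%. With trametinib it held 26 tags (17.0 to 38.1) with a fold enrichment of 5.00, above 68.8%.

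The log2 ratio of depth-scaled tags at the PVT1 start was −0.115 (−0.750 to 0.517) for AMG510 and −0.870 (−1.623 to −0.146) for trametinib. The AMG510 and DMSO libraries were not distinguishable there by tags, and the higher fold enrichment with AMG510 went with a lower background, of 4.03 tags against 5.84. The trametinib library held fewer tags than DMSO, by more than counting error only if each tag is taken as independent. The longer extension of the DMSO tags is not allowed for in either ratio. Beside the quartiles given above for DMSO promoter peaks of 30 tags or more, the AMG510 ratio lay above the upper one and the trametinib ratio between them. No CACGTG lay in these peaks, and 1 CACGCG lay within 100 bp of each summit.

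The other peaks within 500 kb of MYC were found in 1 list each. With DMSO they held 9 to 16 tags, and the one at 413786 bp upstream lay 240 bp from a start of the non-coding gene PCAT1. POU5F1B also starts within 1 kb of that summit. The DMSO peak at 220243 bp downstream lay inside PVT1. With AMG510 they held 11 to 15 tags, and one of them, 39821 bp upstream in the non-coding gene CASC11, was the nearest peak to the MYC start in any list. Those at 282960 and 440872 bp downstream lay inside PVT1. With trametinib they held 10 to 20 tags, and those at 59755 and 73975 bp downstream lay inside PVT1. The former, with 20 tags, had its summit 19 bp from another PVT1 start. The IgG peak, with 11 tags, lay 373409 bp downstream, also inside PVT1.

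**Figure D5:**
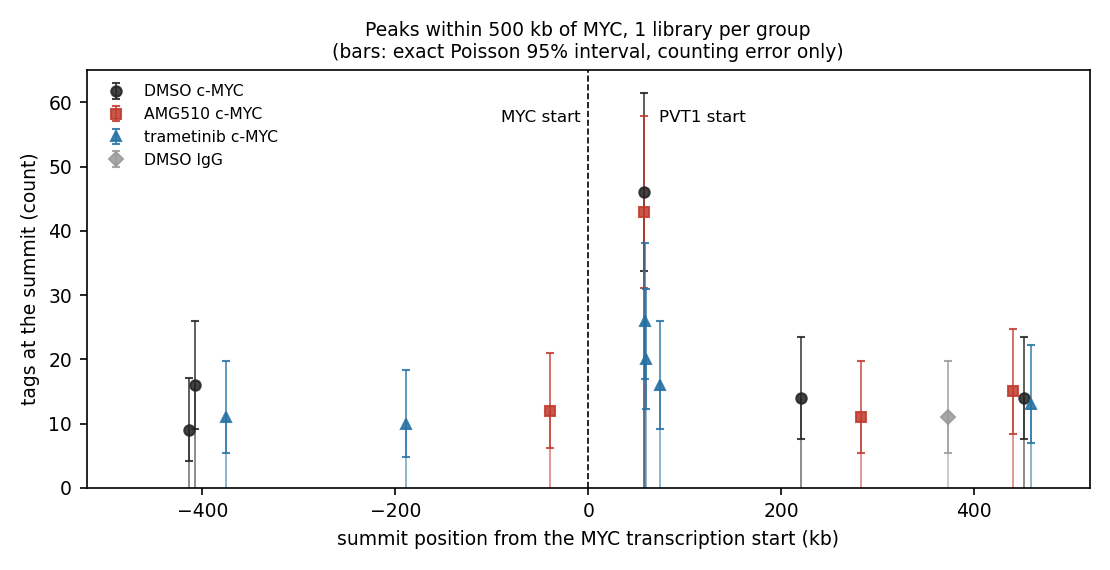
Peaks within 500 kb of MYC, plotted by the distance of the summit from the MYC transcription start (horizontal axis, kb, positive downstream) and by the tags at the summit (vertical axis, count from 0), with exact Poisson 95% intervals. Symbols and colours mark the library. The site at the PVT1 start, about 58 kb downstream, stands out with 46, 43 and 26 tags, and no peak lies at the MYC start.

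Partners of the network were examined through lists of named genes, each count being given beside the share of all protein-coding genes. These lists too were chosen with earlier results of these data known. Of 15 genes for SIN3, histone deacetylase and related corepressor subunits, which the MXD proteins recruit, 5 had a promoter peak with DMSO (all genes 24.2%), 0 with AMG510 (15.3%) and 5 with trametinib (11.8%). Of the 5 with DMSO, 2 also had one with trametinib, HDAC2, a histone deacetylase, and NCOR1, a nuclear receptor corepressor. That was near the background, as 35.3% of all genes with a DMSO promoter peak also had one with trametinib. HDAC2 held 28 tags with DMSO and 17 with trametinib, and NCOR1 12 and 14. ARID4B and RBBP7, which had a promoter peak with DMSO alone, held 14 and 10 tags.

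Of 15 coactivator genes, 7 had a promoter peak with DMSO, 3 with AMG510 and 6 with trametinib, beside 24.2%, 15.3% and 11.8% of all genes, and 3 had one in every c-MYC list. The AMG510 count was near the share of all genes. RUVBL1, an ATPase of chromatin remodelling complexes, held 31, 16 and 20 tags with DMSO, AMG510 and trametinib. WDR5, a chromatin scaffold that binds MYC, held 24, 14 and 15, and HCFC1, a transcriptional coregulator, held 12, 15 and 12. EPC1, of a histone acetyltransferase complex, held 18 tags with DMSO and 13 with trametinib.

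Of 9 genes for other subunits of the Polycomb complex that contains MGA, 7 had a promoter peak with DMSO, 4 with AMG510 and 3 with trametinib, where the shares of all genes were 24.2%, 15.3% and 11.8%. CBX3, a heterochromatin protein, had the strongest, with 76, 28 and 31 tags and a DMSO fold enrichment of 11.6. RYBP held 21, 11 and 16 tags, and RNF2, a ubiquitin ligase subunit, held 29 with DMSO and 14 with trametinib.

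Of 13 genes that regulate the turnover of MYC, 3 had a promoter peak with DMSO, 2 with AMG510 and 1 with trametinib. These counts were near the shares of all genes, 24.2%, 15.3% and 11.8%. The kinase gene GSK3B, whose product marks MYC for degradation, held 12, 12 and 14 tags, and USP7, a deubiquitinase gene, held 13 with DMSO. Of 13 genes for other E-box-binding factors and their partners, 6 had a promoter peak with DMSO (all genes 24.2%), 3 with AMG510 (15.3%) and 2 with trametinib (11.8%), the drug counts being close to the shares of all genes. SREBF1, a regulator of lipid synthesis, held 34, 20 and 16 tags, and TFEB, a regulator of lysosome genes, held 10, 11 and 11. USF2 and BHLHE40 held 17 and 14 tags with DMSO. Among MYCN, MYCL and MLXIPL, the remaining family members, only MYCL had a promoter peak, with DMSO and 15 tags. No gene of these lists had an IgG promoter peak.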

How the data were processed

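Peak lists of 4 libraries were analysed, mapped to treatment and antibody by the sample titles. According to the methods and the submitters' processing notes, the authors trimmed reads with Trimmomatic 0.39, aligned them with BWA 0.7.17 to GRCh38 (hg38), filtered them with SAMtools 1.9, Picard and bedtools 2.27.1, and called peaks with MACS2 2.2.7.1, each library separately. Per peak the authors deposited a score (10 times the −log10 q-value, truncated), the fold enrichment (a ratio of summit pileup to background), the −log10 p-value and the −log10 q-value, with q at 0.05 or below. Values are relative to each library's own background, so peaks were ranked only within a list.

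MACS2 derives fold enrichment and p from a whole number of tags and a background rate. For fold enrichment, 1 is added to both the tags and the background before the ratio is taken. Solving for both gave whole tags, to within 0.001 in −log10 p, for 100% of peaks, and the procedure was tested on simulated data. Depth came from the genome-wide background, the fragment extension and an assumed genome of 2700000000 bp, rounded to 3 digits. Tag counts carry exact Poisson 95% intervals, tag ratios exact conditional binomial intervals on depth-scaled tags, and shares Wilson intervals. These leave out variation between cultures and the differing extension of tags between libraries. A peak selected for its height in 1 library also tends to be lower in another.

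Genes were the protein-coding genes of GENCODE 44 outside the mitochondrial genome, with the second copies of pseudoautosomal genes dropped. Peaks overlapped when they shared at least 1 bp. All 68 partner genes were matched. Named were all 10 network genes, and from each partner list the genes with a promoter peak in every c-MYC list and the 3 with the highest DMSO fold enrichment. NCOR1 was added after its values were seen, and 1 gene that the rule names is not reported here. The network genes and partner lists were chosen with earlier results of these data known. Analyses used Python 3.11.15, numpy 2.4.6, pandas 2.3.3 and scipy 1.17.1. Other peak filters, promoter distances, TSS sets, windows, overlap rules and motif windows were tried. No signal tracks were used here.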

Additional observations from a re-analysis of the deposited data

Results flagged for a closer look

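The PVT1 start, near MYC, was singled out because its fold enrichment was higher than with DMSO in the AMG510 library and lower in the trametinib library. It was 6.87 with DMSO, 8.74 with AMG510 and 5.00 with trametinib, each relative to the background of its own library, which was 5.84, 4.03 and 4.40 tags. The log2 ratio of depth-scaled tags to DMSO was −0.115 for AMG510, within counting error, and −0.870 for trametinib.

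The number of peaks within 500 kb of MYC was 5 with DMSO, 4 with AMG510 and 6 with trametinib, again on either side of DMSO. This held at 500 kb but not at the other distances tried, since both drug lists had more peaks than DMSO within 100 kb (1, 2 and 3 for DMSO, AMG510 and trametinib) and within 1 Mb (7, 10 and 10). With 1 library per treatment, neither difference between the drugs was tested.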

How the results depend on the processing

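Of 117 recalculations of 23 results, 71 stayed within 1.5 times the value given and 46 did not. With only peaks above a fold enrichment of 5, or with a score above 60, or at 500 bp from the TSS, 1 network gene had a promoter peak with trametinib, the same single gene counting as kept from DMSO. It was MXD1 under both filters and MXD3 at 500 bp. With canonical transcripts 2 genes, MXD1 and MXD3, were kept with AMG510. With all annotated transcripts MNT also had an AMG510 promoter peak, and 5 genes were kept. MGA was lost from the DMSO list under both filters, and MXI1 and MGA with canonical transcripts. At 500 bp MXD1, the strongest network peak, dropped out of all 3 c-MYC lists, its summits lying farther from the TSS.

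The share of all genes with a promoter peak was 12.1% with DMSO, 5.75% with AMG510, 4.87% with trametinib and 0.122% in IgG above a fold enrichment of 5, and 9.80%, 2.98%, 2.93% and 0.0203% above a score of 60. The IgG share was 0.345% at 500 bp, 0.909% at 2 kb, 1.76% at 5 kb and 0.366% with canonical transcripts. Fewer peaks or other distances set these shares by construction. Nearby peaks were found at 3 genes with AMG510 and 1 with trametinib under either filter, and at 4 with trametinib and 1 in IgG when 50 kb was searched. No share of all genes is given for nearby peaks at these settings, so these counts cannot be set against a background.

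Around MYC, a fold enrichment above 5 left 1 peak with DMSO, 1 with AMG510, 0 with trametinib and 0 in IgG, and a score above 60 left 1, 1, 1 and 0. Within 100 kb there were 1, 2, 3 and 0, and within 1 Mb 7 with DMSO, 10 with AMG510 and 10 with trametinib. Above a fold enrichment of 5, trametinib overlapped 1 DMSO promoter peak of the network. CACGTG was within 50 bp of the summit in 2 DMSO peaks and 0 with trametinib, and within 250 bp in 2 with AMG510 and 2 with trametinib. With CACGCG accepted, 7 DMSO and 3 AMG510 peaks held a motif, against 37.0% and 32.5% of all promoter peaks in those lists. For the other counts of this paragraph no share over all genes or peaks is given.

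No paired analysis was possible because there was 1 library per group, which also left no replicate to leave out. Most network peaks held 9 to 27 tags, where a call rests on a few tags. The pileup at a site without a peak is not known beyond its lying under the calling limit, and the treatment cannot be told apart from the library that carries it.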
